A study of Mus musculus with 40 samples.

Results

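Adipsin and 4 other transcripts of fat cells were followed in mouse liver. The 5 genes, Cfd, Adipoq, Fabp4, Plin1 and Retn, were taken by symbol from a table of 32544 genes, and the question was whether Cfd, which encodes adipsin, varies together with adipocyte markers or apart from them. They were chosen by measured values: earlier results of these data had shown Cfd among the most changed genes, and the other 4 were added as fat cell markers. Their differences between groups are therefore given as a description and without a test. Liver RNA was sequenced from male C57BL/6 mice at postnatal day 64. All mice were germ-free, that is, raised without microbes, and all had received 6 weeks of treatment with delta-valerobetaine (VB), a trimethylated compound that gut bacteria make, or with vehicle. The 4 groups of 5 mice were Western diet with VB, Western diet with vehicle, control diet with VB and control diet with vehicle. The labels give neither the dose of VB nor the diets' composition, and absent microbes limit what these mice model in conventional animals.

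White fat cells secrete hormone-like proteins called adipokines, and adipsin, adiponectin (Adipoq), leptin (Lep) and, in mice, resistin (Retn) are among them. Adipsin is also complement factor D, the serine protease that cleaves factor B once it is bound to C3b and so starts the alternative pathway of complement. Fabp4 encodes a fatty acid binding protein of fat cells that macrophages and capillary endothelium also make, and Plin1 encodes perilipin 1, the coat protein of the large lipid droplet in fat cells. PPARG, the nuclear receptor that drives fat cell formation, is active in fatty mouse livers as well, where hepatocytes express genes of the adipocyte programme such as Cidec and Cd36.

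The 5 genes lie apart in the genome (GRCm38), and none overlaps another annotated gene. Cfd, with 5 exons in its principal transcript, lies on chromosome 10 from 79890853 to 79892655 on the plus strand. Adipoq, with 3 exons, lies on chromosome 16 from 23146536 to 23158028 on the plus strand. Fabp4, with 4 exons, lies on chromosome 3 from 10204088 to 10208576 on the minus strand. Plin1, with 9 exons, lies on chromosome 7 from 79720218 to 79732903 on the minus strand, and Retn, with 4 exons, on chromosome 8 from 3655770 to 3660110 on the plus strand. These positions describe whole genes, and the counts join reads over all exons of a gene.

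The start regions of Cfd and Adipoq are shown as those of the adipsin gene and of a marker that defines fat cells. Each sequence runs 5′ to 3′ over 250 bases before and 50 bases after the RefSeq start on the coding strand (GRCm38.p6). Capitals mark matches to the motifs searched for.
Cfd, chr10:79890603-79890902, plus strand: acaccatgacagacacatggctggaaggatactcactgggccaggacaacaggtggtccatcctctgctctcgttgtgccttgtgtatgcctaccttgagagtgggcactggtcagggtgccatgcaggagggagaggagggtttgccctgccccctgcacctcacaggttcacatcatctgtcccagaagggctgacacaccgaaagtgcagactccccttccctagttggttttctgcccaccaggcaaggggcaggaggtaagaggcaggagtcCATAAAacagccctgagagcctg
Adipoq, chr16:23146286-23146585, plus strand: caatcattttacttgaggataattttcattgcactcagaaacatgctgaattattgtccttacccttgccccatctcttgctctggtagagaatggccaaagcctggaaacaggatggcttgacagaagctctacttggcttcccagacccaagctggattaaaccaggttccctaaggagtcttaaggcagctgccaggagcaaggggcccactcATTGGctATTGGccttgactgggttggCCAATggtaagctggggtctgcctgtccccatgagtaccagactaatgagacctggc
The motifs searched for were TATAAA and its variant CATAAA on the coding strand, and on both strands CCAAT, the nuclear receptor core AGGTCA, the DR1 element of 2 such cores with 1 base between them, the C/EBP palindrome TTGCGCAA, the D box TTATGNAA and the E box CACGTG. In Cfd the letters CATAAA began at base 28 of the transcribed stretch, and 6.53% of 32851 promoters hold CATAAA. Adipoq held CCAAT 3 times within 34 bases of its start, 2 of them on the opposite strand (ATTGG), and 37.4% of promoters hold CCAAT on either strand. The windows of Plin1 and Retn held none of these letters, and 4 of the 5 members had a RefSeq window. A match to so few letters describes the sequence and is not a site of binding.

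Library depth ran from 16315342 to 24566686 counts per mouse after the 2 lane files of each mouse were summed. Values below are CPM, read counts scaled by library size with TMM, a normalization that makes libraries comparable over most genes. A gene with 3 reads had 0.118 to 0.215 CPM, depending on the library, and values at that level are near the limit of detection. Western diet vehicle mouse 4 stood apart, with the highest value of any mouse in 21.9% of 12616 tested genes, against 1.64% to 10.7% in the others, and with 4.62% mitochondrial counts, against 1.99% to 3.33%. Hepatocyte markers were at liver levels throughout: Alb, Apoa1, Ttr, Ahsg and Fgb together reached 34476 to 57518 CPM. In 1 lane file the treatment field says vehicle while the title says VB. That file and its other lane agreed as closely as lanes of other mice, and the library was kept as Western diet VB mouse 1. A score of circadian clock genes, in SD units, averaged 0.21 ± 0.43 in Western diet VB mice, 1.27 ± 0.12 in Western diet vehicle mice, -0.15 ± 0.27 in control diet VB mice and -1.33 ± 0.42 in control diet vehicle mice (SD, n = 5 each). No collection time is given, and the part of the clock score in the differences below was not tested beyond the fit with that score as a covariate.

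Cfd was high in livers of Western diet vehicle mice, lower in Western diet VB mice and near 1 CPM on the control diet. It had 4.97, 32.3, 19.5, 22.4 and 11.6 CPM in Western diet VB mice 1 to 5, against 158.4, 243.9, 137.4, 265.3 and 30.1 CPM in Western diet vehicle mice 1 to 5. Control diet VB mice had 0.089, 1.16, 2.71, 0.33 and 1.01 CPM and control diet vehicle mice had 0.36, 0.58, 1.02, 1.67 and 1.00 CPM. The Western diet groups overlapped through a single vehicle mouse, number 5, whose 30.1 CPM lay below the 32.3 CPM of VB mouse 2, while every Western diet mouse lay above every control diet mouse.

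**Figure D1:**
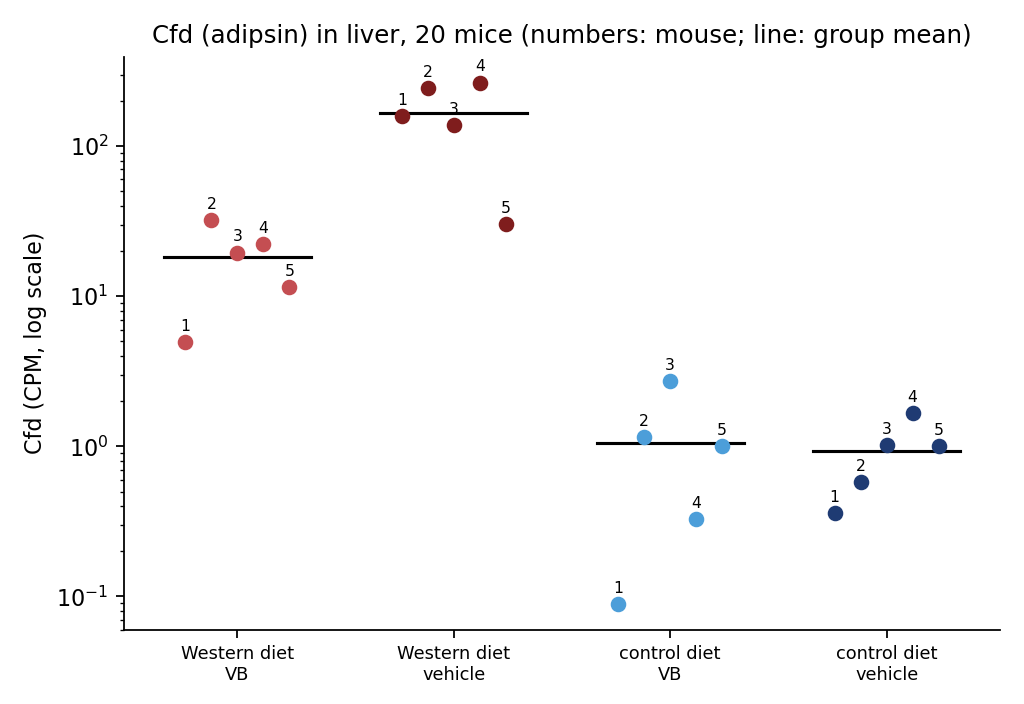
Cfd in CPM on a log scale for each of 20 mice; points are mice, numbers are mouse numbers and lines are group means. Western diet VB mice sit between 4.97 and 32.3 CPM, Western diet vehicle mice between 30.1 and 265.3 CPM, and all control diet mice at 2.71 CPM or less.

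Group means were 18.2 ± 10.5 CPM in Western diet VB mice and 167.0 ± 93.9 CPM in Western diet vehicle mice, a log2 change of -3.20 (SE 0.57), or 9.17-fold lower with VB. On the control diet they were 1.06 ± 1.02 CPM in VB mice and 0.93 ± 0.50 CPM in vehicle mice (SD, n = 5 each), a log2 change of 0.21 (SE 0.89). Western against control diet gave a log2 change of 7.46 (SE 0.76), or 176-fold, in vehicle mice. In VB mice that diet difference was 4.05 (SE 0.69), or 16.6-fold, so Cfd stayed above its control diet level under VB. The VB effects on the 2 diets differed by -3.41 (SE 1.05) on the log2 scale. These coefficients come from edgeR's quasi-likelihood model fitted to all genes.

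By the rule used for other genes, an adjusted p under 0.05 over all tested genes, Cfd would count as lower with VB on the Western diet, where 3.86% of genes did. It would also count as higher with Western diet, where 8.92% did in vehicle mice and 3.23% in VB mice. CPM ranges that did not overlap and lay higher with Western diet occurred in 6.45% of tested genes in vehicle mice and 4.95% in VB mice, and ranges that did not overlap in either direction in 5.56% for the VB comparison on the Western diet. The difference of VB effects passed in 7.64% of tested genes. Because Cfd was chosen for this pattern, nothing is read from those shares. With the clock score as a covariate, the log2 change with VB on the Western diet was -3.74 (SE 1.14) and the diet change in vehicle mice 8.70 (SE 2.26), neither past the threshold. In that fit the score nearly follows the groups, so clock state and group cannot be told apart.

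Adipoq, Plin1 and Retn behaved otherwise: Western diet VB mice 2 and 5 held 95.3% of all Adipoq reads, 61.2% of all Plin1 reads and 83.5% of all Retn reads. Adipoq had 0, 138, 0, 0 and 85 reads in Western diet VB mice 1 to 5 and at most 4 reads in any Western diet vehicle mouse. No control diet mouse of either treatment had more than 2 Adipoq reads. In CPM those peaks were 7.31 in mouse 2 and 4.08 in mouse 5.

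Plin1 had 46 and 28 reads in Western diet VB mice 2 and 5, or 2.44 and 1.34 CPM. In the other 3 Western diet VB mice it had 0.124 to 0.257 CPM, against 0.0498 to 0.176 CPM in Western diet vehicle mice. It had 0.0784 to 0.235 CPM in control diet VB mice and 0.0516 to 0.181 CPM in control diet vehicle mice. A trace of Plin1, of 1 to 5 reads, was therefore present in the remaining 18 mice.

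Retn had 82 and 50 reads, or 4.34 and 2.40 CPM, in Western diet VB mice 2 and 5. Its next highest counts were 8 reads in Western diet vehicle mouse 4 and 5 reads in Western diet VB mouse 4. Control diet mice had 0 to 2 Retn reads. For Adipoq, Plin1 and Retn only 2 mice reached 10 reads, so these genes failed the filter on low counts and no fold change was fitted. The 2 Western diet VB mice apart, the remaining 18 livers held hardly any of the 3 transcripts in any group.

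**Figure D2:**
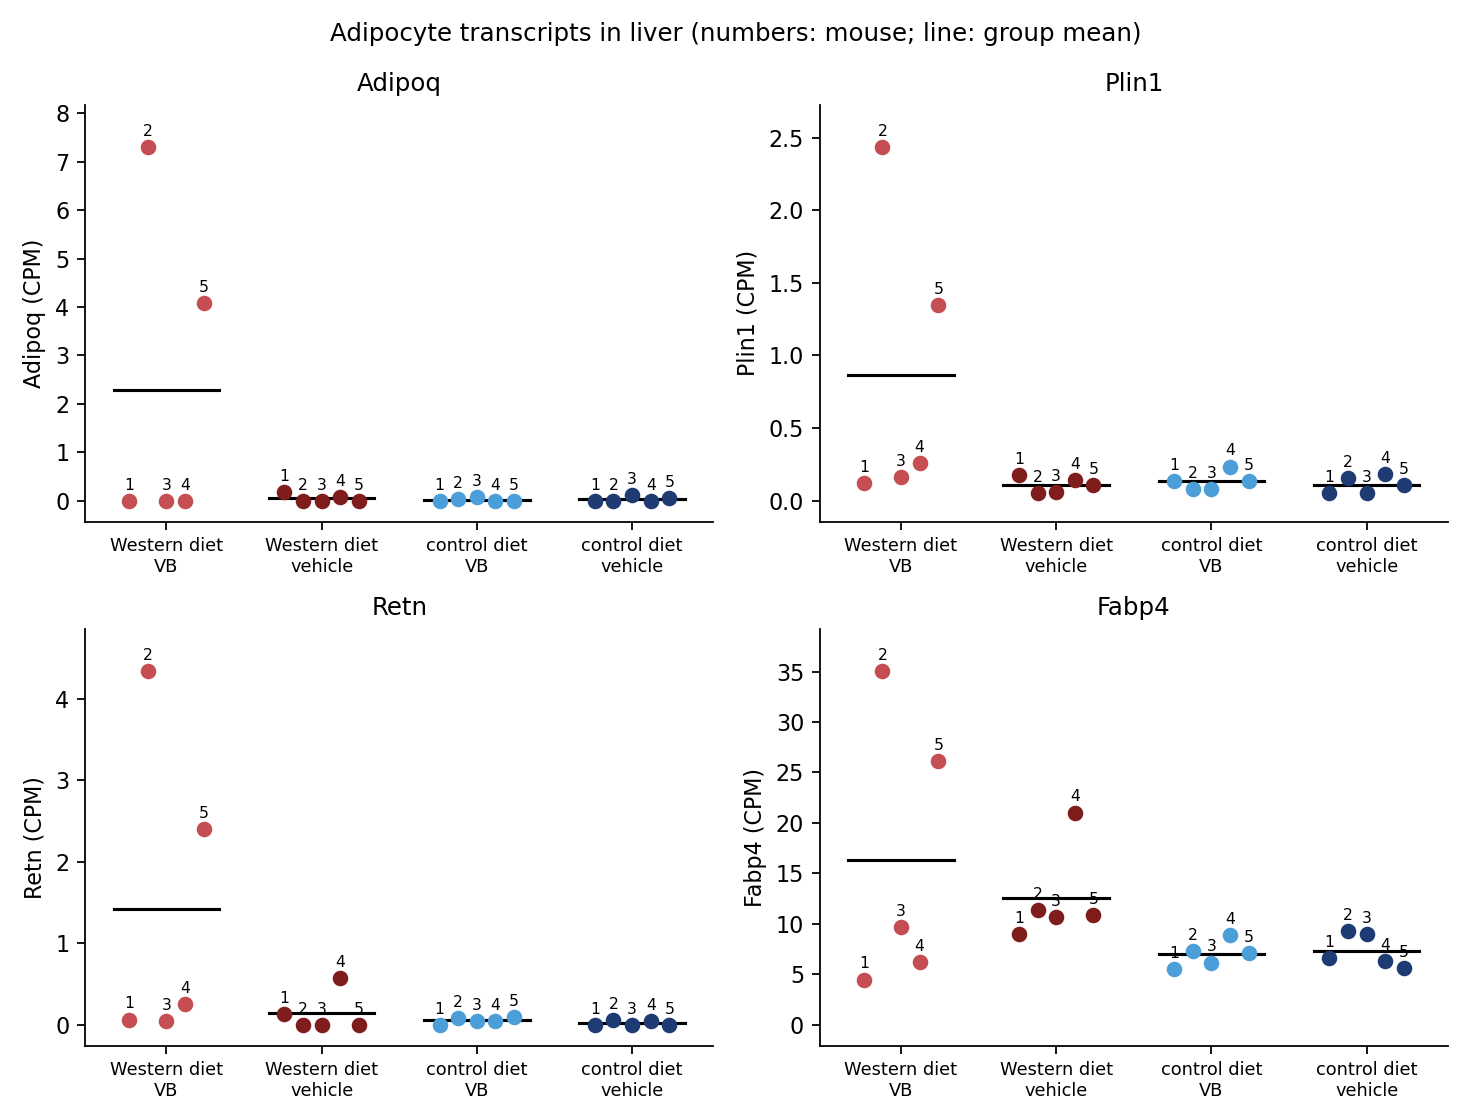
Adipoq, Plin1, Retn and Fabp4 in CPM for each mouse, in 4 panels with linear axes of different range; points are mice, numbers are mouse numbers and lines are group means. Western diet VB mice 2 and 5 are the highest points in every panel, at 7.31 and 4.08 CPM for Adipoq and at 35.1 and 26.1 CPM for Fabp4.

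Fabp4 was present in every liver and highest in the same pair of mice. It had 4.47, 35.1, 9.69, 6.17 and 26.1 CPM in Western diet VB mice 1 to 5, against 8.97, 11.4, 10.7, 21.02 and 10.9 CPM in Western diet vehicle mice 1 to 5. Control diet VB mice had 5.49, 7.28, 6.16, 8.89 and 7.13 CPM and control diet vehicle mice had 6.61, 9.24, 8.97, 6.29 and 5.64 CPM. The ranges of the 2 groups overlapped in each of the 4 comparisons made, while every Western diet vehicle mouse lay above every control diet VB mouse. VB mice 2 and 5 and vehicle mouse 4 of the Western diet were above all others.

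The log2 change of Fabp4 was 0.38 (SE 0.42) for VB on the Western diet and -0.07 (SE 0.44) for VB on the control diet. It was 0.77 (SE 0.44) for Western against control diet in vehicle mice and 1.22 (SE 0.43) in VB mice. Fabp4 passed the threshold in none of these, nor in the difference of the VB effects, 0.46 (SE 0.61). Without Western diet VB mice 2 and 5, a choice made after seeing the data, its change with VB on the Western diet was -0.87 (SE 0.27) and its diet change in VB mice -0.05 (SE 0.27). Both directions thus turned on those libraries. Its diet change in vehicle mice was 0.75 (SE 0.23) in that fit and then passed the threshold, with nearly the same estimate and a smaller SE. Fabp4 is one of the 5 genes whose differences are given as a description. Nothing is therefore read from its passing or failing the threshold.

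Levels of different genes can be compared per length, as CPM per kilobase of the principal transcript. In Western diet VB mice Cfd averaged 19.7 ± 11.3 CPM per kilobase and Fabp4 18.2 ± 15.1, which did not differ beyond their spread. Adipoq followed at 1.76 ± 2.57, Retn at 1.25 ± 1.68 and Plin1 at 0.307 ± 0.360 in those mice (SD, n = 5). Each of these had 2 high libraries and 3 low ones, so the SD mostly reflects that split and does not judge their order. In mouse 2 Adipoq, Retn and Plin1 had 5.66, 3.81 and 0.865 CPM per kilobase, and mouse 5 had the same order. The low libraries did not share it, as Adipoq had no read in them. In Western diet vehicle mice the order opened with Cfd at 181.2 ± 101.8 CPM per kilobase and Fabp4 at 14.1 ± 5.36, whose ranges did not overlap. Retn at 0.124 ± 0.218, Adipoq at 0.038 ± 0.060 and Plin1 at 0.038 ± 0.019 did not differ there beyond their spread. On the control diet Fabp4 came first, at 7.80 ± 1.44 CPM per kilobase in VB mice and 8.20 ± 1.83 in vehicle mice, and Cfd lay at 1.15 ± 1.11 in VB mice and 1.01 ± 0.55 in vehicle mice, without overlap. The remaining members averaged under 0.05 CPM per kilobase in each control diet group.

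Set side by side, Cfd and the adipocyte transcripts were highest in different livers. Adipoq, Plin1 and Retn summed to 14.1 CPM in Western diet VB mouse 2 and 7.83 CPM in mouse 5, and to at most 0.787 CPM in any other mouse. In those 2 mice Cfd had 32.3 and 11.6 CPM, the first above and the other within the 4.97 to 22.4 CPM of the remaining 3 mice of their group. Cfd reads numbered 2.29 and 1.48 per read of the 3 markers in them. Western diet vehicle mice 1 and 4 had 327.5 and 337.3 Cfd reads per such read. Western diet vehicle mice 2, 3 and 5 had 4898, 2312 and 549 Cfd reads beside 1, 1 and 2 reads of the markers. The livers with most Cfd thus held almost no Adipoq, Plin1 or Retn.

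**Figure D3:**
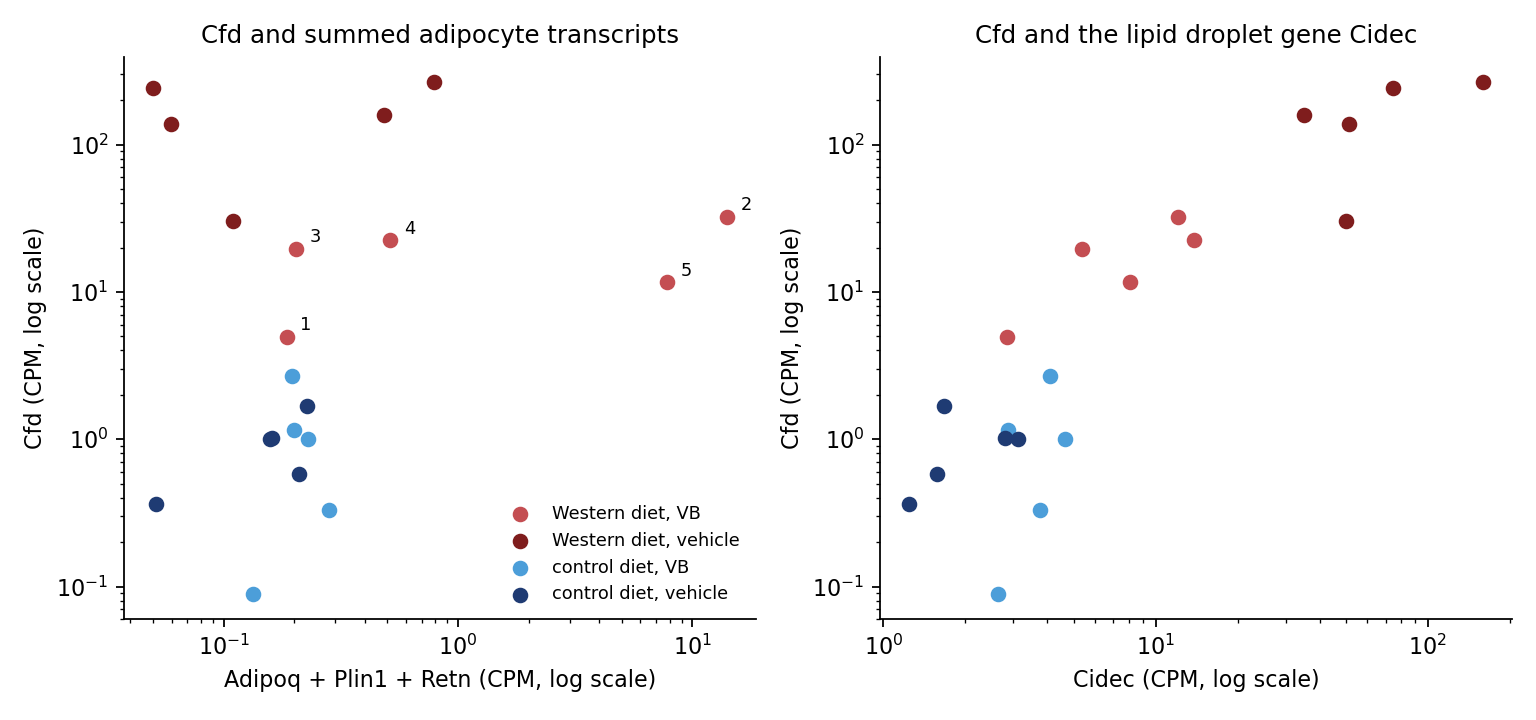
Cfd in CPM of each mouse against the summed CPM of Adipoq, Plin1 and Retn (left) and against the CPM of Cidec (right), all axes logarithmic; points are mice, coloured by group, with Western diet VB mice numbered on the left. On the left, mice 2 and 5 lie far right at 14.1 and 7.83 CPM without the highest Cfd; on the right, the Western diet vehicle mice have the highest Cfd and the highest Cidec, at 35.1 CPM or more.

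Differences between mice of a group were compared as well, as deviations of log2 CPM from the group mean over all 20 mice. Pearson's r with Cfd was 0.26 for Adipoq, 0.27 for Fabp4, 0.14 for Plin1 and 0.36 for Retn. Permuting mice within groups gave two-sided p of 0.297, 0.255, 0.593 and 0.128 in that order, and 0.397, 0.397, 0.593 and 0.397 after Benjamini-Hochberg adjustment over these 4 relations. Spearman's rho was 0.32, 0.22, 0.05 and 0.35, with permutation p of 0.192, 0.385, 0.841 and 0.160 and adjusted p of 0.383, 0.513, 0.841 and 0.383. The 2 mice farthest from the median of each marker were then left out, with deviations still taken from means of the full groups. On that measure r was 0.26 for Adipoq, -0.03 for Fabp4, -0.23 for Plin1 and 0.37 for Retn. Permutation p was 0.0400, 0.893, 0.237 and 0.0568, and 0.114, 0.893, 0.316 and 0.114 after adjustment over the 4. Since those means include the mice left out, these values are not purely within groups. With group means recomputed without Western diet VB mice 2 and 5, r for Adipoq was 0.42 and did not pass the adjustment. Among themselves the 4 markers had r of 0.82 to 0.88 over the deviations of all 20 mice, and without Western diet VB mice 2 and 5 the r of the 6 pairs was 0.0013 to 0.53. No relation of Cfd with these markers within groups passed the adjustment, and with 20 mice a weaker one could be missed.

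A wider list of adipocyte genes that hepatocytes scarcely express was examined next; it holds Adipoq, Plin1, Retn and Fabp4 but not Cfd. Of its 17 listed genes, 16 were in the table and Trarg1 was not. Of those 16, 13 were highest in Western diet VB mouse 2 (11 genes) or mouse 5 (2 genes). Of the 12 genes beside those 4 markers, 9 were highest in mouse 2 or 5, among them Acvr1c on a single read, and in 3 of the 12 those mice held both highest values. Leptin, which is made mainly by fat cells, had 42 reads, or 2.22 CPM, in mouse 2 and 2 reads in mouse 5, and none in the other 18 mice. Sncg, gamma-synuclein, had 44 and 22 reads in mice 2 and 5 and at most 6 elsewhere. Nnat, neuronatin, had 75 reads in mouse 2 and at most 9 in any other mouse. The list's summed level ran from 57.7 to 133.2 CPM in Western diet VB mice and 76.1 to 90.2 in Western diet vehicle mice, against 60.0 to 77.1 in control diet VB mice and 64.4 to 83.2 in control diet vehicle mice. Pde3b, which hepatocytes also express, reached 70.9 CPM and is part of that sum in every mouse.

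Other genes of this list were exceptions. Slc2a4 was highest in Western diet vehicle mice 5 and 1, and Pde3b in Western diet vehicle mice 2 and 5. Aqp7, with 16 reads in Western diet VB mouse 2, also had 8 to 10 reads in VB mice 3 to 5. It had 1 to 8 reads in Western diet vehicle mice and at most 3 in control diet mice. Adig, adipogenin, is a small protein of fat cell lipid droplets. It had 0, 5, 0, 0 and 4 reads in Western diet VB mice 1 to 5, against 2, 8, 2, 4 and 3 reads in Western diet vehicle mice 1 to 5. On the control diet it had 4 reads in VB mouse 4 and none in the other 9 mice. It was thus seen in every Western diet vehicle liver, at counts too low to be tested.

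**Figure D4:**
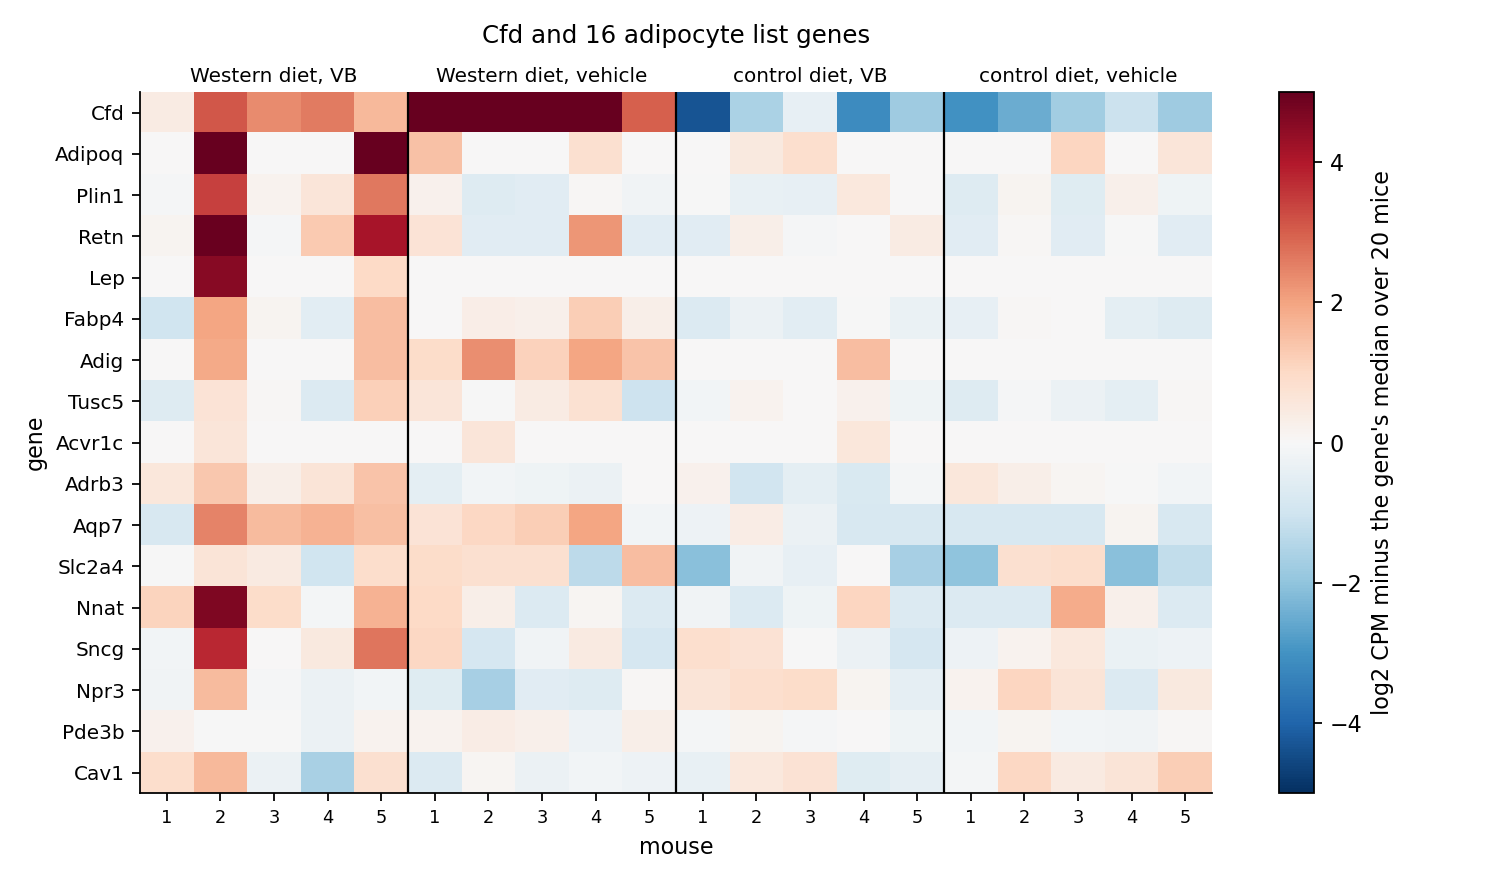
Log2 CPM of Cfd and 16 adipocyte list genes (rows) in 20 mice (columns, by group), each as the difference from that gene's median over all mice; red is higher, blue is lower and colours saturate at 5 units. Cfd lies above its median in all Western diet mice, most of all in vehicle mice 1 to 4. Adipoq, Plin1, Retn, Lep and Sncg are red in Western diet VB mice 2 and 5, with Lep in mouse 5 resting on 2 reads.

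Over all tested genes 7.19% passed with VB on the Western diet and 6.44% with Western diet in VB mice. Of the adipocyte list 7 genes were tested, and Adrb3, the beta-3 adrenergic receptor of fat cells, was the only one to pass. It was higher with VB on the Western diet, with a log2 change of 1.18 (SE 0.26; edgeR adjusted p = 0.00607), and higher with Western diet in VB mice, at 1.33 (SE 0.26; edgeR adjusted p = 0.00214). It had 3.04, 5.35, 2.49, 3.24 and 5.67 CPM in Western diet VB mice 1 to 5, against 1.41 to 2.09 CPM in Western diet vehicle mice. The groups did not overlap, and mice 2 and 5 were again the highest. Without them the change with VB was 0.74 (SE 0.26; edgeR adjusted p = 0.152), which no longer passed, and the diet change in VB mice was 0.87 (SE 0.26; edgeR adjusted p = 0.0599), which did not pass either. The list's median log2 change was 0.38 for VB on the Western diet and 0.23 for Western diet in vehicle mice, against -0.02 and 0.02 over all tested genes. These medians over 7 genes are the changes of single genes, Fabp4 and Pde3b. Without mice 2 and 5, Fabp4, Tusc5, Slc2a4 and Pde3b changed by -0.87, -0.74, -0.97 and -0.21 with VB on the Western diet. Adrb3, Npr3 and Cav1 changed by 0.74, 0.50 and 0.21, so the first median rested on those mice.

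Markers of other tissues and cell types were examined in the same way. Western diet VB mouse 5 had 7.59 CPM summed over 6 skeletal muscle genes, with 82 reads of Acta1, the skeletal actin, and 19 of Ckm, muscle creatine kinase, while all other mice had at most 1.06 CPM. Mouse 2 had 62 reads of the pancreatic chymotrypsinogen gene Ctrb1, against at most 2 in any other mouse, and 42 reads of Retnla, a resistin relative. Endothelial genes summed to 77.6 to 209.5 CPM in Western diet VB mice and 129.1 to 250.7 in Western diet vehicle mice, against 148.6 to 192.1 in control diet VB mice and 142.8 to 191.1 in control diet vehicle mice, and none of 10 tested passed with VB on the Western diet. Macrophage genes summed to 124.0 to 261.4 CPM in Western diet VB mice and 149.95 to 366.4 in Western diet vehicle mice, against 189.98 to 232.0 in control diet VB mice and 179.8 to 230.1 in control diet vehicle mice, and again none of 10 tested passed. Over all tested genes 7.19% passed in that comparison, so the absence of a call among 10 genes says little. With Western diet in vehicle mice 16.5% of all tested genes passed. Stab2 of sinusoidal endothelium and Trem2 of macrophages were higher there, at 0.59 (SE 0.19; edgeR adjusted p = 0.0313) and 0.97 (SE 0.33; edgeR adjusted p = 0.0446), and Cd9 was lower, at -0.49 (SE 0.13; edgeR adjusted p = 0.0132). S100a9 of neutrophils was higher too, at 3.20 (SE 0.86; edgeR adjusted p = 0.012), on 48 reads in all in Western diet vehicle mice and 5 in control diet vehicle mice. Mesothelial genes summed to 1.34 to 11.2 CPM in Western diet VB mice and 0.644 to 16.96 in Western diet vehicle mice. Neutrophil genes summed to 0.424 to 2.01 CPM in Western diet VB mice and 0.773 to 1.85 in Western diet vehicle mice, against 0.235 to 1.61 in control diet VB mice and 0.136 to 0.263 in control diet vehicle mice. Pancreatic acinar genes summed to 35.4 to 42.6 CPM in Western diet VB mice and 16.3 to 25.2 in Western diet vehicle mice. They summed to 22.3 to 39.6 CPM in control diet VB mice and 27.8 to 49.9 in control diet vehicle mice. Of these 11 genes only Cela1 passed the filter on low counts, and Ctrb1 was nearly absent outside mouse 2. The sums are therefore not read as a level of acinar cells. Cela1 was higher with VB on the Western diet, at 0.86 (SE 0.16; edgeR adjusted p = 0.00186). It was lower with Western diet in vehicle mice, at -1.04, which passed as well. The part of these cells in the Cfd difference was not tested, and in whole liver a smaller number of cells of a type cannot be told from less RNA per cell.

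Leaving out mice 2 and 5 altered Cfd little. Its log2 change was -3.41 (SE 0.72) for VB on the Western diet and 3.83 (SE 0.74) for Western diet in VB mice in that fit. Leaving out any single mouse gave -3.51 to -2.96 for VB on the Western diet and 7.23 to 7.81 for Western diet in vehicle mice. Without Western diet vehicle mouse 4, the library that stood apart, these were -2.97 (SE 0.57) and 7.23 (SE 0.76). The difference of VB effects, -3.41, did not pass the threshold in the main fit and passed in 5 of 30 alternatives. One was DESeq2, at -3.39 (SE 0.98). Fits without Western diet VB mouse 2, Western diet vehicle mouse 5 or control diet VB mouse 1 also passed, at -3.72, -3.68 and -3.70. Because Cfd was chosen for its group pattern, nothing is read from a pass or a failure.

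Among the genes that could be ranked, those with a pattern most like that of Cfd over all 20 mice were not fat cell markers of the list above. Adipoq, Plin1 and Retn failed the filter on low counts. Only 7 of the list's 16 genes in the table were tested, so most of the list could not appear here. Among 11203 genes averaging 1 CPM or more, the 10 highest correlations of log2 CPM were those of Aen (r = 0.94), Gpc1 (0.93), Lamb3 (0.91), Tmem186 (0.91), Cidec (0.91), Rasgrp2 (0.91), Fabp2 (0.91), Pepd (0.90), Tmem120a (0.90) and Pgm3 (0.90). Gpc1 encodes the proteoglycan glypican 1, Lamb3 a laminin chain, Cidec a protein of lipid droplets and Fabp2 a fatty acid binding protein best known from intestine. The points share the group structure, so these r values mostly rank genes by how they differ between groups. Their direction between groups is thereby fixed by how they were chosen, and it is not read as a result. Fabp4 ranked 1311 by the same measure, with r = 0.53.

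Of these 10 genes, Gpc1 averaged 18.9 ± 4.98 CPM in Western diet VB mice and 45.2 ± 8.12 CPM in Western diet vehicle mice (SD, n = 5 each), a log2 change of -1.26 (SE 0.25). Lamb3 averaged 4.77 ± 1.32 CPM in Western diet VB mice and 11.9 ± 1.74 CPM in Western diet vehicle mice, a change of -1.32 (SE 0.21). Cfd's own log2 change, -3.20, was larger than either and close to that of Cidec.

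Over deviations within groups the ranking was another one. It was led by Dhrs3 (r = 0.74), which encodes a retinaldehyde reductase, and Anxa2 (r = 0.74), which encodes annexin A2, followed by Zfp108, Ice1, Chchd6, Cstf1, Dusp12, Tpm2, Vwf and Lpp at 0.70 to 0.67. None of these is in the first 10. Dhrs3 ran against Cfd across all mice, at r = -0.77, so that its likeness held only between mice of a group. Cidec ranked 72 within groups, with r = 0.55.

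Lipid droplet and PPARG genes that fat and fatty liver share moved in the direction of Cfd in the VB comparison on the Western diet and the diet comparison in vehicle mice, but not in the diet comparison in VB mice. Of 17 tested, 12 were higher and none lower with Western diet in vehicle mice, where 16.5% of all tested genes passed in either direction. With VB on the Western diet 11 were lower and 1 higher, where 7.19% passed, and on the control diet none passed, where 0.151% did. In VB mice 1 was higher, 2 were lower and 14 did not pass with Western diet, where 6.44% passed; the list's median there was -0.10, against 4.05 for Cfd, and Cidec's change of 1.23 did not pass. The list's median log2 change was -0.997 for VB on the Western diet and 1.79 for Western diet in vehicle mice. Without Western diet VB mice 2 and 5, 9 were lower and none higher with VB on the Western diet. This list holds genes that earlier results of these data had shown to change, so its counts are not independent support.

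Cidec, whose protein fuses lipid droplets, had 2.86, 12.1, 5.36, 13.8 and 8.02 CPM in Western diet VB mice 1 to 5, against 35.1, 74.6, 51.2, 159.8 and 50.1 CPM in Western diet vehicle mice 1 to 5. Control diet VB mice had 2.63 to 4.66 CPM and control diet vehicle mice 1.24 to 3.11 CPM. The Western diet groups did not overlap, and the order of mice was not that of Cfd: vehicle mouse 5, with the least Cfd of its group, had 50.1 CPM of Cidec. Its log2 change was -3.13 (SE 0.42; edgeR adjusted p = 0.000409) for VB on the Western diet and 5.16 (SE 0.49; edgeR adjusted p = 9.29e-07) for Western diet in vehicle mice.

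Pparg itself averaged 5.61 ± 1.86 CPM in Western diet VB mice and 17.5 ± 5.599 CPM in Western diet vehicle mice, against 6.92 ± 1.44 CPM in control diet VB mice and 5.05 ± 0.38 CPM in control diet vehicle mice (SD, n = 5 each). Its log2 change was -1.64 (SE 0.22) for VB on the Western diet. Cidea, a relative of Cidec in brown fat and fatty liver, changed by -4.65 (SE 0.87), the fatty acid receptor Cd36 by -1.79 (SE 0.32), and Lipe, hormone-sensitive lipase, by -1.25 (SE 0.14). The edgeR adjusted p of these 4 genes was 0.000246, 0.0032, 0.00204 and 3.15e-05.

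Lpl, lipoprotein lipase, which fat and muscle make and adult hepatocytes scarcely, went the other way. It averaged 29.5 ± 10.97 CPM in Western diet VB mice and 18.8 ± 2.01 CPM in Western diet vehicle mice (SD, n = 5 each), a log2 change of 0.65 (SE 0.20; edgeR adjusted p = 0.0455). Without mice 2 and 5 it was 0.21 (SE 0.16; edgeR adjusted p = 0.610), so this call rested on the libraries with adipocyte transcripts. With Western diet in VB mice Lpl was higher by 1.27. That change still passed without mice 2 and 5, at 0.82 (SE 0.16, edgeR adjusted p = 0.00647).

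**Figure D5:**
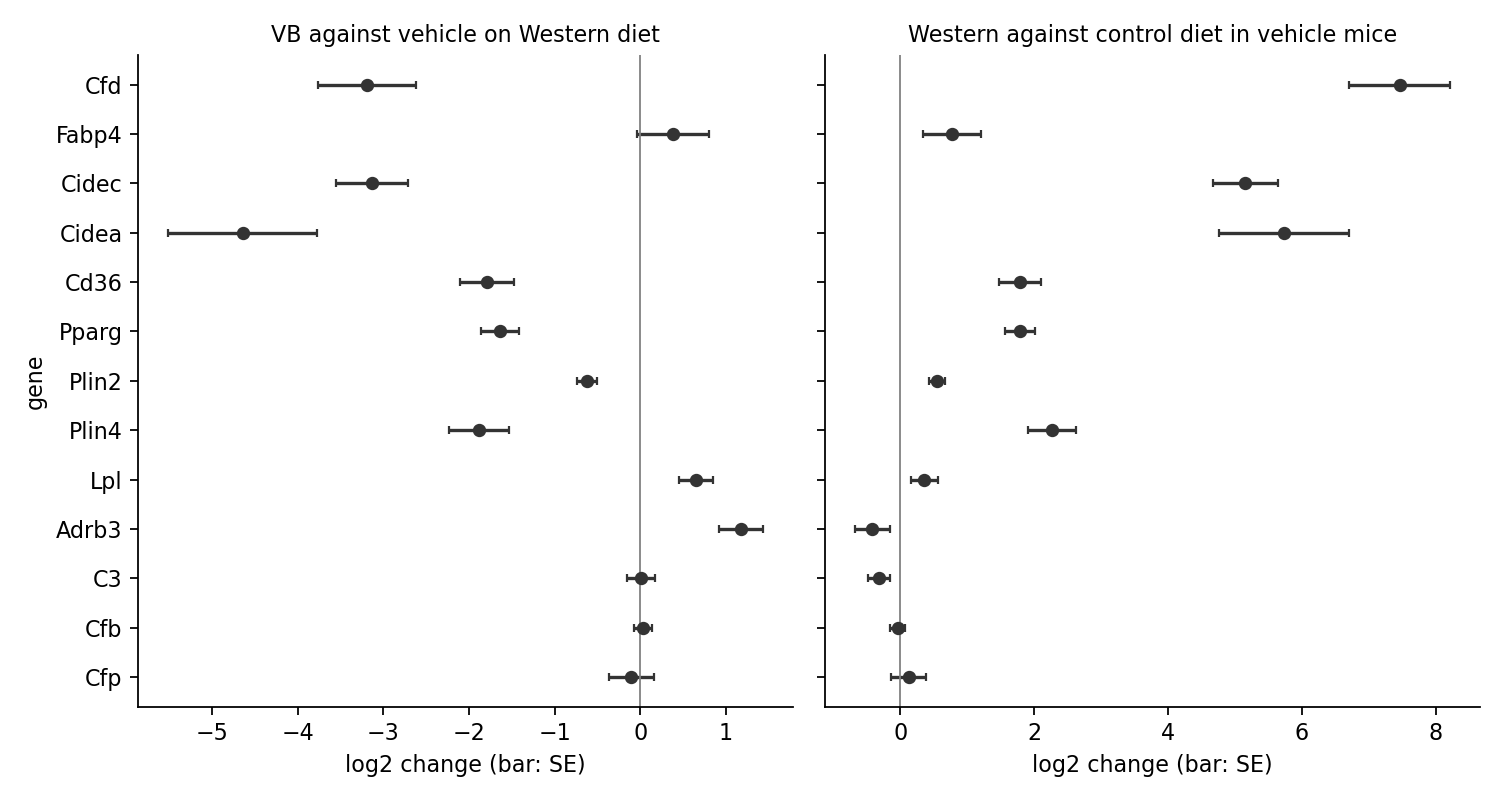
Log2 changes (points) with their SE (bars) from the fit to all genes, for Cfd, Fabp4, lipid droplet genes, Adrb3 and complement genes: VB against vehicle on Western diet (left) and Western against control diet in vehicle mice (right). Cfd at -3.20 lies close to Cidec at -3.13 on the left, while on the right Cfd at 7.46 lies above Cidec at 5.16. C3, Cfb and Cfp lie near 0.

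The other genes of the alternative pathway of complement were examined beside Cfd. None of the other 12 tested passed the threshold with VB on the Western diet, with Western diet in vehicle mice or with Western diet in VB mice, where 7.19%, 16.5% and 6.44% of all tested genes passed. Its substrate factor B, Cfb, averaged 1135 ± 166 CPM in Western diet VB mice and 1106 ± 145 CPM in Western diet vehicle mice (SD, n = 5 each), a log2 change of 0.04 (SE 0.11; edgeR adjusted p = 0.899). C3, the protein that the pathway cleaves, changed by 0.01 (SE 0.16; edgeR adjusted p = 0.985), and Cfp, properdin, which stabilises the convertase, by -0.11 (SE 0.26; edgeR adjusted p = 0.886). With Western diet in vehicle mice the changes were -0.04 (SE 0.11) for Cfb, -0.32 (SE 0.16) for C3 and 0.12 (SE 0.26) for Cfp, none past the threshold. The list's median log2 change was -0.11 for VB on the Western diet.

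Relatives of the members did not share one pattern. Of 4 tested perilipins, Plin2, Plin3 and Plin4 were lower with VB on the Western diet, where 3.86% of all tested genes were, and higher with Western diet in vehicle mice, where 8.92% were. Without Western diet VB mice 2 and 5, Plin3 changed by -0.30 (SE 0.13; edgeR adjusted p = 0.258) with VB on the Western diet and no longer passed. Plin4, of fat and muscle lipid droplets, changed by -1.89 (SE 0.35) and Plin2, the usual perilipin of hepatocytes, by -0.62 (SE 0.12) with VB on the Western diet. Their edgeR adjusted p was 0.00235 and 0.00215. Plin5, of oxidative tissues, changed by -0.41 (SE 0.16; edgeR adjusted p = 0.141), which did not pass.

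Of 5 tested fatty acid binding proteins none passed with VB on the Western diet, where 7.19% of all tested genes did. With Western diet in vehicle mice 16.5% of all tested genes passed. With Western diet in vehicle mice Fabp2 was higher by 1.42 (SE 0.19; edgeR adjusted p = 1.35e-05) and Fabp5, of skin and macrophages, was lower, at -2.03 (SE 0.46; edgeR adjusted p = 0.00492). Fabp1, the abundant liver form, changed by -0.28 (SE 0.18; edgeR adjusted p = 0.429) with VB on the Western diet. The resistin family had no gene that passed the filter on low counts.

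Receptors for adiponectin were present in every liver. Adipor1 averaged 108.2 ± 5.63 CPM in Western diet VB mice and 114.8 ± 14.2 CPM in Western diet vehicle mice, and Adipor2 averaged 173.3 ± 19.4 CPM in Western diet VB mice and 178.4 ± 48.5 CPM in Western diet vehicle mice (SD, n = 5 each). Their log2 changes with VB on the Western diet were -0.09 (SE 0.08; edgeR adjusted p = 0.628) and -0.04 (SE 0.13; edgeR adjusted p = 0.906). With VB on the Western diet 7.19% of all tested genes passed, so few calls in short lists say little. Of 8 tested adipokines and receptors only Nampt, which encodes the NAD-synthesis enzyme also called visfatin, passed there, at -0.57 (SE 0.11; edgeR adjusted p = 0.0032). Without mice 2 and 5 it was -0.50 (SE 0.13; edgeR adjusted p = 0.0529). Of 4 tested genes of the brown fat list, Cidea was lower and Elovl3 higher with VB on the Western diet, and Ucp1, the marker that defines brown fat, had at most 9 reads in any mouse.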

How the data were processed

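The authors deposited raw read counts per gene for 40 lane files of liver RNA libraries made with a TruSeq kit, per the labels. Per the submitters' processing notes, reads were placed on GRCm38. Aligner, counter, annotation and strandedness were not given in the sources used here. Lanes of a mouse differed by a chi-square of 1.33 to 1.49 per degree of freedom, against 10.3 to 80.8 between mice of a group, and were summed to 1 replicate. Groups come from the titles. Genes with enough counts (filterByExpr, minimum 10, total 15) numbered 12616 and held 99.95% of counts. With R 4.3.3, counts were scaled by TMM and 4 groups fitted together in edgeR 4.0.16 (robust quasi-likelihood), with Benjamini-Hochberg adjustment and a threshold of 0.05. The procedure was tested on simulated data. Log2 CPM had 2 as prior count, and correlations used 100000 permutations. Only 2 of the 5 members passed the filter. Members and lists were chosen with earlier results of these data known. Beside the members, named genes are the 10 most correlated with Cfd over all mice and within groups, at most 4 called genes of each list with the smallest p in each comparison, and fixed relatives. Positions come from GENCODE M21 and promoters from RefSeq (GRCm38.p6). Alternatives were RLE and upper-quartile scaling, DESeq2 1.42.0, limma-voom (limma 3.58.1), no filter, fits of only the groups compared, single lanes, the mouse number as a block, a clock score as a covariate, a prior count of 0.5, Spearman's rho, and leaving out mice. Depth sets counting error, which matters for Adipoq, Plin1 and Retn; for the tested genes mice differed by more than counting error. Whether overlapping or near-identical genes shared reads is unknown.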

Additional observations from a re-analysis of the deposited data

Results flagged for a closer look

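Within Western diet vehicle mice, mouse 4 lay far above the other 4 for Fabp4, at 21.02 CPM, and for Retn, at 0.572 CPM or 8 reads. Of 16 member and group sets examined, 2 had such a mouse. Chance alone gives about 1 in 20 for normally distributed values, a rate that need not hold for counts of few reads such as those of Retn. Both came from the same library and are not independent, and that library had the highest value in 21.9% of tested genes.

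The effect of VB differed between the diets for several genes named in the report, by the interaction term of edgeR's model with Benjamini-Hochberg adjustment. The difference of log2 changes, Western diet minus control diet, was -3.93 for Cidec (adjusted p = 0.00123), -2.38 for Plin4 (adjusted p = 0.00609), -2.09 for Pparg (adjusted p = 0.00048) and -1.96 for Cd36 (adjusted p = 0.0105). It was -0.705 for Nampt (adjusted p = 0.00888) and -0.54 for Plin2 (adjusted p = 0.0453). For Adrb3 it was 1.75 (adjusted p = 0.00494) and for Lpl 0.913 (adjusted p = 0.0484). Of all tested genes 7.64% passed. Without Western diet VB mice 2 and 5 the edgeR interaction was 1.31 for Adrb3 (adjusted p = 0.0351), 0.472 for Lpl (adjusted p = 0.258) and -0.44 for Plin2 (adjusted p = 0.159).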

How the results depend on the processing

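The log2 change of Cfd kept its direction in all alternatives run for VB on the Western diet (31), Western diet in vehicle mice (31), Western diet in VB mice (31) and the difference of VB effects (30). Leaving out 1 mouse gave -3.51 to -2.96, 7.23 to 7.81, 3.73 to 4.78 and -3.76 to -2.68 in that order, and -0.512 to 0.561 for VB on the control diet, where the sign depended on the mice. With the clock score as a covariate the diet change in vehicle mice was 8.70 (SE 2.26) and the cause of the move was not tested. With the mouse number as a replicate block, a number that the data gave no reason to treat as a pairing (at most 2 of 5 same-numbered pairs correlated over 0.1 in any comparison), Cfd was -3.21 for VB on the Western diet, 0.195 for VB on the control diet, 7.42 and 4.02 for diet in vehicle and VB mice, and -3.40 for the difference, which then passed the threshold. Nothing is read from that pass either, as Cfd was chosen for its group pattern. Correlations within groups under that block were 0.334 for Adipoq, 0.0722 for Fabp4, 0.158 for Plin1 and 0.414 for Retn. Leaving out 1 mouse gave 0.126 to 0.359 for Adipoq, 0.0838 to 0.353 for Fabp4, -0.0485 to 0.210 for Plin1 and 0.237 to 0.443 for Retn.

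Counts of genes called moved more. For VB on the Western diet 907 became 464 with only the groups compared, 295 without Western diet VB mice 2 and 5 and 5 with the clock score. For VB on the control diet 19 became 164 in DESeq2, 66 with only the groups compared, 65 with the block, 40 in limma-voom, 36 in lane 2 and 29 with upper-quartile scaling, and 0 with the clock score (1354 genes had an unadjusted p under 0.05 in the edgeR fit without it); leaving out 1 mouse gave 6 to 66. For diet in vehicle mice 2083 became 34 with the clock score. Without Western diet vehicle mouse 4, diet in VB mice gave 1397 in place of 813, and the difference of VB effects 1702 in place of 964. That difference gave 526 without Western diet VB mice 2 and 5 and 0 with the clock score. Adipoq, Plin1 and Retn had no fitted change, since they failed the filter, and their low counts limit what can be said of 18 mice.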
